A study of Mus musculus with 6 samples.

Results

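Immediate early genes are the genes a cell transcribes first after a stimulus, before any new protein has to be made. The 10 genes described here are Fos, Fosb, Jun, Junb, Jund, Egr1, Atf3, Ier2, Ier3 and Dusp1, and all probes that the platform annotation assigns to these symbols were taken. They are 10 of 19057 genes on the array and gave 11 of its 45281 probes, since Junb has 2 probes and each other gene has 1. Their levels were measured in endothelium-enriched carotid artery RNA of wild-type C57Bl/6J mice, with 3 arrays described as disturbed flow and 3 described as stable flow. The labels state neither the age of the mice, nor how the disturbed flow was brought about, nor whether a sample is 1 animal or a pool. The p-values therefore cover the variation among these 6 samples, part of which may be technical.

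The proteins of these genes act at successive steps of one response. Fos, Fosb, Jun, Junb, Jund and Atf3 encode leucine zipper proteins that pair with one another to form the transcription factor AP-1 and its relatives. Egr1 encodes a zinc finger transcription factor, Ier2 a nuclear protein, Ier3 a regulator of cell survival, and Dusp1 a phosphatase that switches MAP kinases off again. MAP kinases, serum response factor with its ETS partners, and CREB switch the genes on, and their transcripts are short-lived. In endothelium they respond to changes in shear stress, and in many tissues they also rise while the tissue is cut, digested or warmed, so they are used as a mark of handling.

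Promoter sequence from RefSeq (build GRCm38.p6) was available for 8 of the 10 genes. Those of Jun, Dusp1 and Fos are shown for the 150 bases before the transcription start, read 5′ to 3′ on the gene's strand, because Jun and Dusp1 were the detected genes whose window held a searched element and Fos, whose window also held one, was not detected. Capitals mark TGACATCA in Jun, the variant AP-1 element of that promoter, TGACGTCA in Dusp1, the full cyclic AMP response element, and TGACGT in Fos, the first 6 bases of that element.
Jun, chr4:95052223-95052372, minus strand: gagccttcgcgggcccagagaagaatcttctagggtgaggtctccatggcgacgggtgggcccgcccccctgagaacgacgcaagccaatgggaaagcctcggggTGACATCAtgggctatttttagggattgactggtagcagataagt
Dusp1, chr17:26508473-26508622, minus strand: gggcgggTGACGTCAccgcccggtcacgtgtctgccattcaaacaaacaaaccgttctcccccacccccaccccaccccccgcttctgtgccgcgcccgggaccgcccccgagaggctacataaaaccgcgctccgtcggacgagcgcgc
Fos, chr12:85473740-85473889, plus strand: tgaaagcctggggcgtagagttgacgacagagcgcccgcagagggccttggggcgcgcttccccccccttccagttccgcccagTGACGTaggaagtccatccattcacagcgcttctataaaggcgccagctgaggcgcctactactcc

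Both strands were searched over windows of 250 bases before to 50 after the start. TGACGTCA stood in 1.79% of 32851 promoter windows and, among the 8 genes, only in that of Dusp1. TGACATCA stood in 3.62% of windows and only in that of Jun. The shorter TGACGT, which TGACGTCA contains, stood in 7.51% of windows and in those of Fos, Atf3 and Dusp1. The AP-1 element TGAGTCA (5.20% of windows) and the CArG box bound by serum response factor (1.63%) stood in none of the 8. Egr1 and Ier2 had no sequence to search, and elements outside the windows were not looked for. TATAAA stood in 13.6% of windows and in those of Fos and Junb. A match describes letters in a window and is not evidence of binding.

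The arrays were uneven, and the descriptions and the deposited matrix of processed values disagree on the groups. A probe counts as above background when its detection p, which compares it with negative control beads, is under 0.05. The share of such probes was 19.6% to 34.7% on the disturbed flow arrays and 9.74% to 35.0% on the stable flow arrays, with stable flow 2 the lowest. Stable flow 2 was also the lowest array for 50.2% of the 12546 tested probes. Each of the 6 matrix columns had the rank order of an array that is described as belonging to the other group. Groups here follow the descriptions, every signed difference is disturbed minus stable flow on that basis, and each sign would turn under the matrix column names. Each described group lay on a slide of its own, so slide and flow cannot be told apart. Of 10 endothelial markers, 9 were tested, among them Pecam1 and Cdh5, and all 9 were above background on each array but stable flow 2, where 6 were. Testing itself required a probe above background on 3 arrays or more. Kdr, the marker not tested, was above background on no array.

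Only 5 of the 10 genes were detected well enough to be tested, that is, were above background on 3 arrays or more. These were Jun, Jund, Egr1, Ier3 and Dusp1, with 27 of their 30 values above background, and the other 3 were Jun, Jund and Egr1 on stable flow 2. Fos, Fosb, Junb, Atf3 and Ier2 were not tested, and 1 of their 36 values was above background. In comparison, 6980 of the 19057 genes on the array had a tested probe, and 27.7% of all probes were tested. In bulk RNA, fewer cells of a type and less RNA per cell cannot be told apart.

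**Figure D1:**
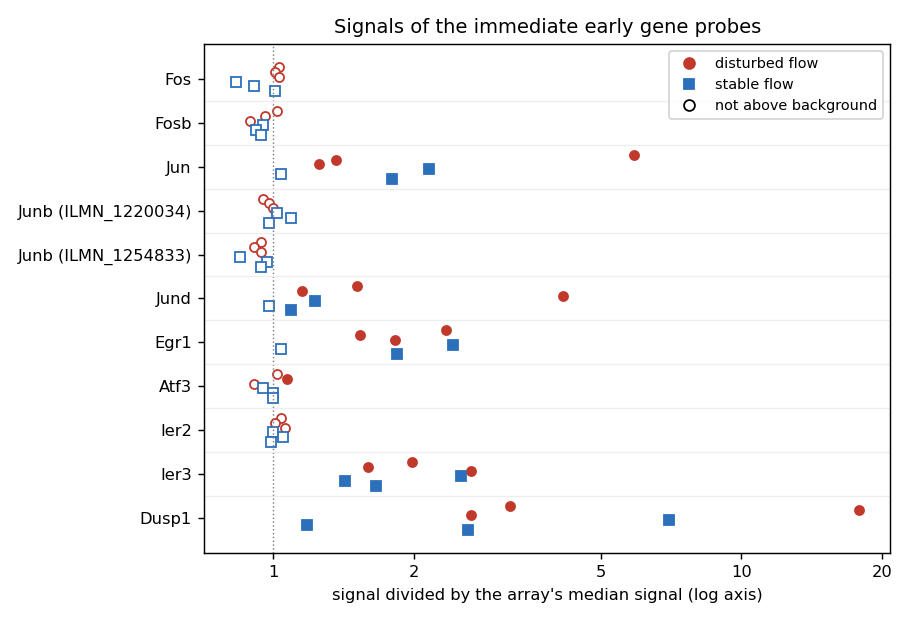
Unnormalized signal of each of the 11 probes divided by its array's median signal, on a log axis, with circles for disturbed flow and squares for stable flow arrays and open symbols where the probe was not above background. The 6 probes of Fos, Fosb, Junb, Atf3 and Ier2 lie between 0.83 and 1.09 on every array, while Dusp1 reaches 17.83 on disturbed flow 2.

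Fos and Fosb, the AP-1 partners whose induction is most often read as a sign of stimulation, had signals at the level of the array medians. Fos had signals of 91.4, 78.1 and 83.0 on disturbed flow 1, 2 and 3, against 91.1, 80.9 and 102 on stable flow 1, 2 and 3. None of these was above background, and the detection p-values ran from 0.0855 to 0.959. Fosb had detection p-values of 0.121 to 0.974. The 2 Junb probes had 0.0545 to 0.585 and 0.616 to 0.959, and their signals were 0.85 to 1.09 times the array median. Ier2 had detection p-values of 0.0588 to 0.359. Atf3, a stress-induced repressor, was above background only on disturbed flow 2, with a signal 1.07 times the array median. No fold is given for these 5 genes, since both groups were at background.

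Jun was above background on all 3 disturbed flow arrays and 2 of 3 stable flow arrays. Its normalized log2 intensity was 8.27, 5.72 and 6.22 on disturbed flow 1, 2 and 3, against 6.16, 4.72 and 6.64 on stable flow 1, 2 and 3. Disturbed flow 1 lay 1.63 above the next array, and the groups overlapped. A gap at least as wide between the highest and next array was found for 12.7% of tested probes. The means were 6.74 ± 1.35 on disturbed flow and 5.84 ± 1.00 on stable flow arrays (SD, n = 3 each), a difference of 0.89 (SE 0.78, 95% interval -0.93 to 2.72, limma adjusted p = 0.890). Without disturbed flow 1 the difference was 0.13, and without stable flow 2 it was 0.33.

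The unnormalized Jun signal gave the same highest array, at 521.5 on disturbed flow 1, with 106 and 101 on disturbed flow 2 and 3, against 235, 91.9 and 182 on stable flow 1, 2 and 3. Disturbed flow 1 was the highest for Jun in all 6 sets of values, which were the main one, 4 other ways of background correction and normalization, and the matrix values of the same rank order. It also carried the most myeloid signal. Of 6 myeloid markers on the array, 5 were above background there, 2 and 1 on disturbed flow 2 and 3, and 1, 0 and 1 on stable flow 1, 2 and 3. Their summed normalized intensity was 565, 138 and 292 on disturbed flow 1, 2 and 3, against 135, 133 and 168 on stable flow 1, 2 and 3. C1qa was above background on none, and Lyz2, the lysozyme gene of myeloid cells and the only tested marker, had a log2 intensity of 8.01 on disturbed flow 1 and 4.35 to 5.91 elsewhere. The part of these cells in the Jun value was not tested.

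Jund, an AP-1 subunit that many cells make without stimulation, showed the widest spread of the 5 genes. Its log2 intensity was 5.70, 5.07 and 8.81 on disturbed flow 1, 2 and 3, against 4.85, 4.32 and 4.79 on stable flow 1, 2 and 3. The groups did not overlap, as for 5.68% of tested probes with disturbed flow higher and 9.68% in either direction. The difference was 1.87 (SE 0.92, 95% interval -0.28 to 4.02, limma adjusted p = 0.890). Disturbed flow 3 set its size, and without that array it was 0.73. In unnormalized signal, divided by the array median, Jund stood at 1.51, 1.15 and 4.15 on disturbed flow 1, 2 and 3, against 1.23, 0.98 and 1.09 on stable flow 1, 2 and 3, and there the groups overlapped. The groups were also mixed with cyclic loess and without normalization, and apart in 4 of the 6 sets of values. On disturbed flow 3 Jund lay 3.11 above its next array, and 2.22% of tested probes had a gap at least as wide between their highest and next array. The red cell and platelet markers on that array had a summed normalized intensity of 1340, with 1110 and 426 on disturbed flow 1 and 2, against 1620, 1710 and 1260 on stable flow 1, 2 and 3, and 3 of the 5 on the array were above background there. Of the 3 tested markers, Alas2, the heme synthesis enzyme of red cell precursors, was high on disturbed flow 3 alone, with a log2 intensity of 8.25 against 4.31 to 4.71 on the other arrays. The globin genes did not share that pattern. Hbb-bt had 9.11, 8.01 and 9.44 on disturbed flow 1, 2 and 3, against 9.95, 10.21 and 9.81 on stable flow 1, 2 and 3, and Hba-a1 had 8.95, 6.75 and 8.21 on disturbed flow, against 9.15, 8.84 and 8.18 on stable flow. Ppbp was above background on none. The part of these cells in the Jund value was not tested.

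Egr1, the zinc finger factor, had log2 intensities of 6.65, 6.04 and 7.53 on disturbed flow 1, 2 and 3, against 6.44, 4.74 and 6.70 on stable flow 1, 2 and 3. The groups overlapped, and the lowest value was the one not above background, on stable flow 2. The difference was 0.78 (SE 0.63, 95% interval -0.70 to 2.26, limma adjusted p = 0.890). Without stable flow 2 it was 0.17, without disturbed flow 3 it was 0.39, and with array weights it was 0.08. The highest array also depended on the processing. It was disturbed flow 3 in 4 of the 6 sets of values, disturbed flow 1 when arrays were scaled to equal 75th percentiles, and stable flow 1 without normalization.

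Ier3, which modulates apoptosis, was above background on all 6 arrays and was the only tested gene with a lower mean on disturbed flow. It had 6.32, 6.14 and 8.18 on disturbed flow 1, 2 and 3, against 6.53, 8.76 and 6.45 on stable flow 1, 2 and 3. One array in each group was high and the other arrays lay close together. The difference was -0.36 (SE 0.80, 95% interval -2.24 to 1.51, limma adjusted p = 0.937), and its sign depended on the processing. It was 0.31 when arrays were scaled to equal 75th percentiles, 0.09 without normalization and 0.39 without stable flow 2. The high value on stable flow 2 depended on how the arrays were scaled. The unnormalized Ier3 signal there was 1.42 times the array median, the lowest of the 6 arrays, against 1.59 to 2.64 elsewhere. Within its array, however, that signal exceeded 98.7% of probes, against 91.8% to 97.9% on the other arrays. Stable flow 2 ranked first for Ier3 after quantile normalization, with or without background correction, and at rank 2 with cyclic loess. It ranked last with arrays scaled to equal 75th percentiles or not normalized.

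Dusp1, the MAP kinase phosphatase, was above background on all 6 arrays. Its log2 intensity was 7.22, 10.21 and 8.18 on disturbed flow 1, 2 and 3, against 8.79, 7.67 and 7.4 on stable flow 1, 2 and 3. Disturbed flow held both the highest and the lowest of these values. The highest lay 1.42 above the next array, and 15.7% of tested probes had a gap at least as wide. The difference was 0.58 (SE 0.78, 95% interval -1.26 to 2.42, limma adjusted p = 0.9). It turned to -0.25 without disturbed flow 2 and was 1.39 when arrays were scaled to equal 75th percentiles. Unnormalized signals were 284, 1384 and 214 on disturbed flow 1, 2 and 3, against 767, 105 and 263 on stable flow 1, 2 and 3. Disturbed flow 2 was the highest in all 6 sets of values, and disturbed flow 1 the lowest in 4 of them. Stable flow 2 was the lowest with arrays scaled to equal 75th percentiles (5.27) and without normalization (4.9).

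**Figure D2:**
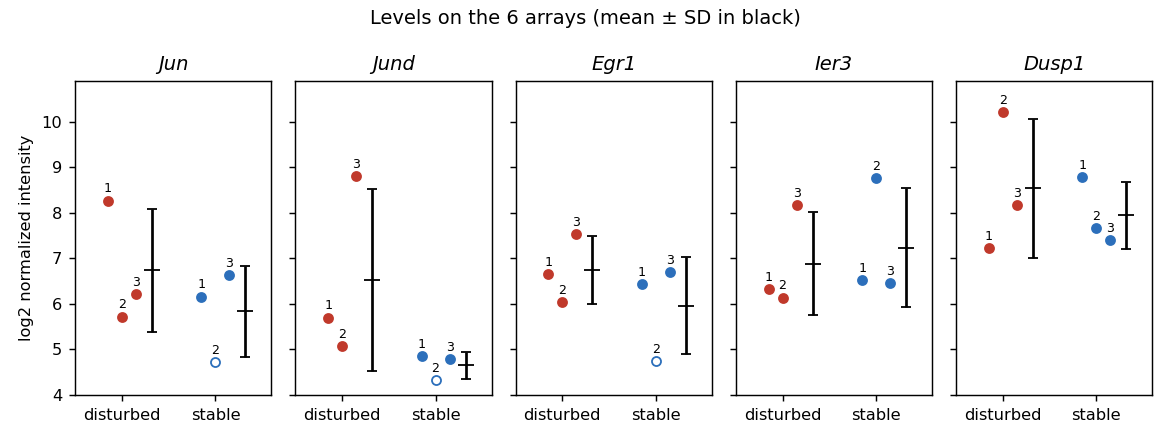
Normalized log2 intensity of the 5 tested genes on each array, disturbed flow left of stable flow, with replicate numbers beside the points, open circles where the probe was not above background, and the mean ± SD of 3 arrays in black. The highest value is on disturbed flow 1 for Jun (8.27), 2 for Dusp1 (10.21) and 3 for Jund (8.81). Gaps to the next array at least as wide were found for 12.7%, 15.7% and 2.22% of tested probes.

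No immediate early gene was shown to differ between the described groups. Of the 5 tested genes, limma called 0 at an adjusted p under 0.05, where it called 0% of all 12546 tested probes, and 0 had an unadjusted p under 0.05, against 2.69% of tested probes. The smallest unadjusted p was 0.0788, for Jund. The differences were above 0 for 4 of the 5, with a median of 0.78, against 57.4% and a median of 0.098 over all tested probes. With no filter, which takes in all 10 genes, 8 lay above 0 and the median was 0.15, against 47.1% and -0.012 over all 45281 probes. The 5 genes added there were at background, so their signs are not read as a direction. For the tested genes, all 5 intervals of the difference included 0, with upper ends from 1.51 for Ier3 to 4.02 for Jund. The lower ends ran from -2.24 for Ier3 to -0.28 for Jund. With 3 arrays a group these intervals were wide, and differences within them were not excluded.

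**Figure D3:**
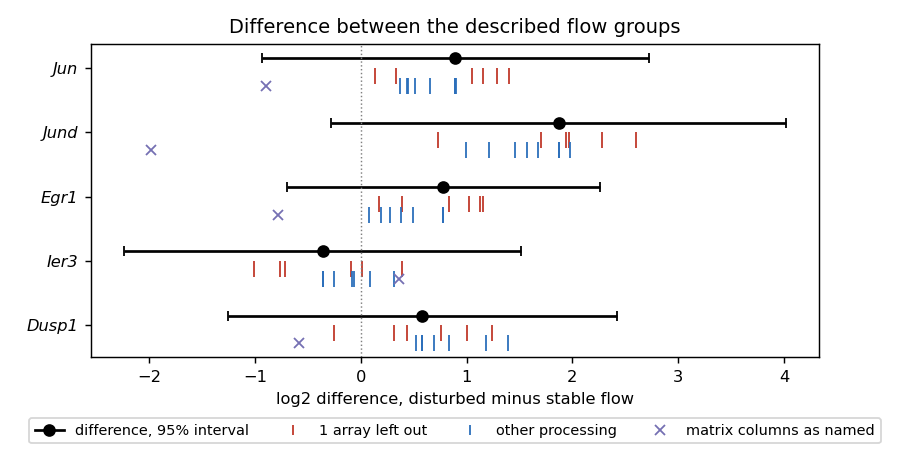
Log2 difference, disturbed minus stable flow, of the 5 tested genes, with 95% intervals in black, red ticks for the differences with 1 array left out, blue ticks for other processing and crosses for the matrix columns as named. All 5 intervals include 0, and leaving out 1 array moved Jund between 0.73 and 2.60 and Ier3 between -1.01 and 0.39.

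In the main set of values, the detected genes did not share one order of arrays. Jun was highest on disturbed flow 1, Dusp1 on disturbed flow 2, Jund and Egr1 on disturbed flow 3, and Ier3 on stable flow 2. Over all tested probes, each array was the highest for 15.1% to 19.0%, so peaks spread over arrays are not particular to these genes. Jun, Jund and Egr1 were lowest on stable flow 2, Ier3 on disturbed flow 2 and Dusp1 on disturbed flow 1. With arrays scaled to equal 75th percentiles or not normalized, all of them were lowest on stable flow 2. Signals spread least on that array, with an interquartile range of 0.14 in log2 over tested probes, against 0.3 to 0.93 elsewhere. The share of all tested probes lowest there under those settings was not computed, so no shared order is read from it. On disturbed flow 3 in the main values, Jund, Egr1 and Ier3 lay above their own means by 3.22, 1.18 and 1.12, while Jun and Dusp1 were at -0.07 and -0.06. On disturbed flow 2, where Dusp1 was 1.96 above its mean, the other four were 0.31 to 0.92 below theirs. On stable flow 2, Jun, Jund, Egr1 and Dusp1 were at -1.57, -1.27, -1.61 and -0.57, and Ier3 was at 1.69. Each gene varied over the 6 arrays more than the median tested probe, with SDs of 0.93 (Egr1) to 1.64 (Jund) against 0.57. These comparisons of SD were not matched on intensity. By array, these genes averaged log2 6.04 to 7.78, against 5.4 to 5.83 for all tested probes. The share of tested probes with a smaller SD was 78.2% for Egr1 and 97.3% for Jund. Without stable flow 2 the Egr1 SD was 0.55 against a median of 0.44, with 62.6% of tested probes smaller, and the other four had SDs of 0.83 to 1.70.

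**Figure D4:**
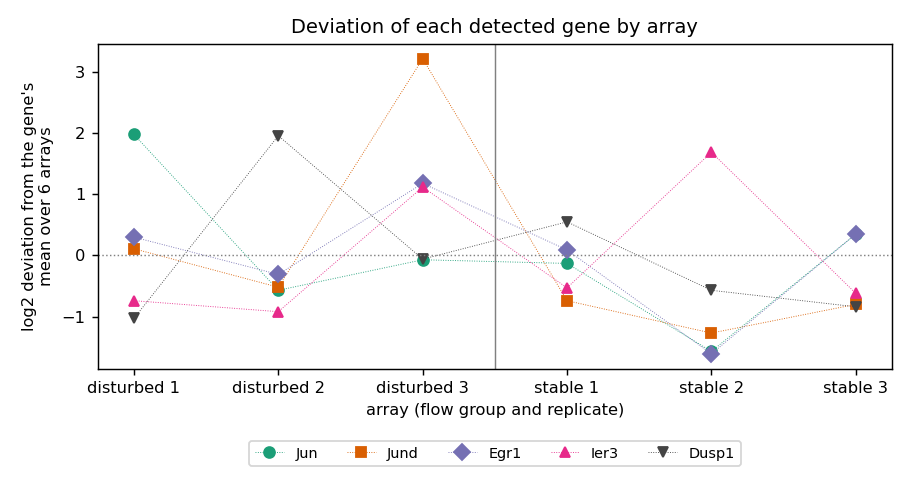
Deviation of each tested gene from its own mean over 6 arrays, in log2 units, disturbed flow arrays on the left, with dotted lines that only join the points of one gene. The peaks lie on different arrays, disturbed flow 1 for Jun, 2 for Dusp1, 3 for Jund and Egr1, and stable flow 2 for Ier3. Each array is the highest for 15.1% to 19.0% of all tested probes.

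Correlations over the 6 arrays were computed for the 10 pairs of tested genes, on the main values only, and none passed. Pearson's r was above 0 for 4 pairs and below 0 for 6, with a median of -0.05. The highest was for Jund and Egr1 (r = 0.75, exact permutation p = 0.149, rho = 0.60, exact permutation p = 0.242, n = 6), and r was 0.77 without the 2 arrays farthest from the Jund median. Jun and Egr1 followed (r = 0.61, exact permutation p = 0.176, rho = 0.77, exact permutation p = 0.103, n = 6), with r = 0.48 without disturbed flow 1 and stable flow 2. Jun and Ier3 had the lowest (r = -0.59, exact permutation p = 0.250, rho = -0.37, exact permutation p = 0.497, n = 6), which turned to 0.19 without those same arrays. After Benjamini-Hochberg adjustment of these exact permutation p-values over the 10 pairs, the smallest was 0.821 for r and 0.806 for rho. The described groups hold 3 arrays each, too few for a correlation within a group.

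Other early response genes were given for comparison from a list of 27, of which 14 were tested. None passed the test, 8 were higher and 6 lower on disturbed flow, and the median difference was 0.04. Over all tested probes 0% passed, 57.4% were higher and the median was 0.098. An unadjusted limma p under 0.05 was found for 1 of the 14, against 2.69% of tested probes. The further immediate early factors Egr2, Egr3, Nr4a1, Nr4a2, Nr4a3, Myc and Fosl1 were not tested, and Egr3 and Nr4a3 were above background on no array. Dusp6, a phosphatase specific for ERK kinases, had 8.31, 7.58 and 7.87 on disturbed flow 1, 2 and 3, against 7.42, 6.63 and 6.89 on stable flow 1, 2 and 3. The groups did not overlap, as for 5.68% of tested probes with disturbed flow higher and 9.68% in either direction. The Dusp6 difference was 0.94 (SE 0.38, limma adjusted p = 0.890). Nfkbiz, an inducible IkB protein, and Gadd45b, a stress response gene, had differences of 0.94 (SE 0.56) and 0.81 (SE 0.49), with overlapping groups.

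Of 18 upstream kinases and factors, 12 were tested, 7 higher and 5 lower on disturbed flow, with 0 called and a median of 0.16. Over all tested probes 57.4% were higher, 0% were called and the median was 0.098. An unadjusted limma p under 0.05 was found for 1 of the 12, against 2.69% of tested probes. Mapk9, which encodes the kinase JNK2 that phosphorylates Jun, had 6.12, 5.48 and 6.22 on disturbed flow 1, 2 and 3, against 7.14, 8.61 and 6.47 on stable flow 1, 2 and 3. Its groups did not overlap, as for 4% of tested probes with disturbed flow lower and 9.68% in either direction. The highest Mapk9 value was that of stable flow 2. Mapk9 differed by -1.47 (SE 0.58, limma adjusted p = 0.890). Elk4, an ETS partner of serum response factor, differed by 1.03 (SE 0.59) and Map2k2, a kinase of the ERK cascade, by -0.50 (SE 0.35). Srf itself ranged from 4.51 on stable flow 2 to 8.97 on stable flow 1, with a difference of 0.27 (SE 1.01), and is named here after its values were seen.

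Heat shock genes, which also rise when tissue is warmed or dissociated, numbered 10, of which 8 were tested, 3 higher and 5 lower, with 0 called and a median of -0.06. Over all tested probes 57.4% were higher, 0% were called and the median was 0.098. Hsph1, a co-chaperone of the HSP70 system, had 7.86, 5.75 and 8.61 on disturbed flow 1, 2 and 3, against 6.86, 4.57 and 5.75 on stable flow 1, 2 and 3, a difference of 1.68 (SE 0.86, limma adjusted p = 0.890). Like Jund it was highest on disturbed flow 3 and lowest on stable flow 2. Hspe1 and Hsp90aa1 differed by 1.04 (SE 0.66) and 0.40 (SE 0.43). Averaged over the tested genes, the immediate early genes deviated from their means by 0.12, -0.07 and 1.08 on disturbed flow 1, 2 and 3, against -0.15, -0.67 and -0.31 on stable flow 1, 2 and 3. The heat shock genes deviated by 0.31, -0.03 and 0.14 on disturbed flow, against 0.27, -0.42 and -0.27 on stable flow, and the other early response genes by at most 0.22 on any array. All tested probes together were at 0.01 on disturbed flow 3 and at -0.32 on stable flow 2. By these averages the heat shock genes were highest on disturbed flow 1 and the immediate early genes on disturbed flow 3. Jund was 3.22 above its mean on disturbed flow 3, Egr1 1.18 and Ier3 1.12, while Jun and Dusp1 were at -0.07 and -0.06. The part of tissue handling in these values was not tested.

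**Figure D5:**
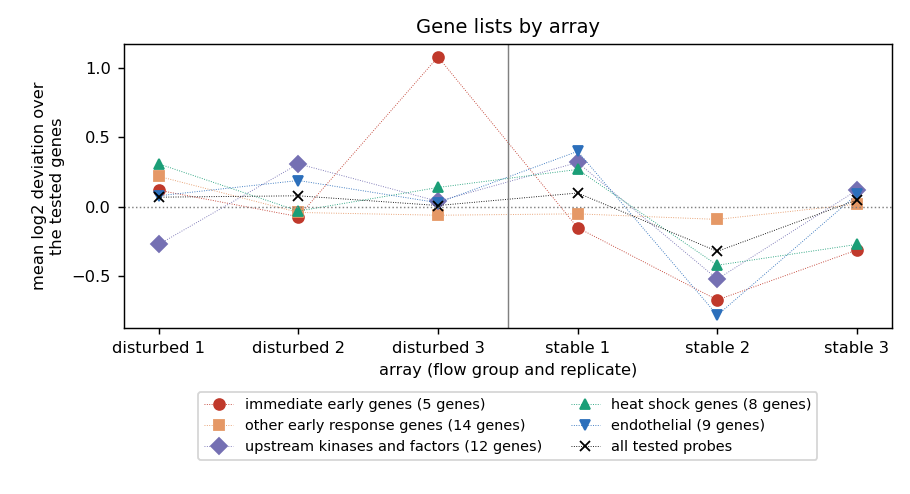
Mean log2 deviation of the tested genes of each list from their own means, by array, with disturbed flow on the left and dotted lines that only join the points of one list. The mean of the 5 immediate early genes is 1.08 on disturbed flow 3, with Jund at 3.22 and Jun and Dusp1 near 0. The heat shock and other early response lists lie at 0.14 and -0.06 there and all tested probes at 0.01.

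The genes whose pattern was most like the mean of the 5 tested genes were B3gntl1, Map3k3, Ubl4a, Eef1e1 and Rars, with Pearson's r of 0.998, 0.996, 0.995, 0.993 and 0.993 over 6 arrays. They were the highest of 6975 genes searched, of which 352 had r above 0.9, so these values are a description. Rars, the arginyl-tRNA synthetase gene, had 5.77, 5.42 and 8.10 on disturbed flow 1, 2 and 3, against 5.20, 4.42 and 5.13 on stable flow 1, 2 and 3. It was high on disturbed flow 3 alone, as Jund was. Map3k3, a kinase upstream of the ERK5 pathway, ranged only from 4.46 on stable flow 2 to 5.76 on disturbed flow 3. Likeness to Fos was not computed, because Fos was at background.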

How the data were processed

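Bead array signal intensities were deposited for each probe and array with a detection p-value, per the file headers, with no subtraction or normalization visible in the deposited values. The submitters' processing notes name GenomeStudio 2011.1 without settings. The deposited matrix intensities run from -17.0 to 9720 in every column and have medians of 2.50 to 2.62, not centred. Their form is that of background-subtracted, quantile-normalized values on a linear scale, a step no label states.

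Signals were processed with neqc in limma 3.58.1 (R 4.3.3, offset 16), and the 12546 probes above background (detection p under 0.05) on 3 or more arrays entered lmFit and eBayes. Tests were two-sided, and p-values were adjusted by Benjamini-Hochberg over all those probes. The fit was also run on simulated data with normal errors of equal spread on every array. The weights of the real arrays ran from 0.28 to 2.1, so that run does not cover uneven arrays. Matrix values entered as log2(value floored at 0, plus 16). Of all probes, 34885 had 1 platform symbol, 18 several and 10378 none here, and 34807 matched RefSeq by gene identifier. The most intense tested probe stood for a gene. Members and lists were chosen with earlier results of these data known. The text names all members, the 3 genes with the smallest p per list, and the 5 genes most like the member mean. Marker lists of smooth muscle (3 of 6 tested), fibroblast (3 of 5), red cell and platelet (3 of 6) and lymphocyte (0 of 5) genes gave 0 called genes.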

Additional observations from a re-analysis of the deposited data

How the results depend on the processing

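The number of probes called was 0 under all 16 alternatives for which it was computed, as was the number of immediate early probes called, with 15 to 2097 probes at an unadjusted p under 0.05. The replicate block, fitted on the numbers 1 to 3 that the labels give both groups, called 0 probes (329 at an unadjusted p under 0.05, smallest adjusted p = 0.962). Deviations of same-numbered arrays correlated at -0.03, -0.07 and -0.08, so the numbers were not taken to pair the samples. With the matrix columns as named, the median over immediate early genes was -0.78, and the signs turned to -0.90 for Jun, -1.98 for Jund, -0.78 for Egr1, 0.36 for Ier3 and -0.58 for Dusp1, since these columns hold the arrays of the other group. Given to the arrays of the same rank order, an alternative chosen after seeing the data, they gave a median of 0.78. Ier3 was 0.31 with arrays scaled to equal 75th percentiles, and 0.09 with no normalization. The median of all tested probes was then 0.11 and -0.10, so Ier3 lay 0.20 and 0.19 above it, and Jun, Jund, Egr1 and Dusp1 were above it in both. Without each array in turn, the median over the tested genes was 0.39 to 1.15, Jun 0.13 to 1.40, Jund 0.73 to 2.60, Egr1 0.17 to 1.15, Dusp1 -0.25 to 1.24 and Ier3 -1.01 to 0.39. Dusp1 was below 0 only without disturbed flow 2, and Ier3 above 0 without disturbed flow 2 or stable flow 2. Requiring a probe above background on all 6 arrays left Ier3 and Dusp1, with a median of 0.11. Signal over background limits what can be said of the other 5 genes.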
